A study of Mus musculus with 16 samples.

Results

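The genes described here are the lipases and enzymes of glycerolipid turnover *Lpl*, *Lipg*, *Liph*, *Pnpla2*, *Lipe*, *Mgll*, *Lipa*, *Dgat1* and *Dgat2*, together with the lipoprotein receptor gene *Apobr*. They were chosen by symbol, 10 of the 48397 gene symbols counted in each library, and all 10 passed the filter on low counts that left 17038 genes to test. *Liph* and *Apobr* passed it only through libraries of neurons given apoE lipoproteins, as no control library reached its cutoff for them. RNA was sequenced from cultured primary hippocampal neurons exposed to astrocyte-derived lipoproteins that carry 1 of the human apoE isoforms, and the question was how the isoforms differ in their effect on the neuronal transcriptome. Each of 4 groups had 4 libraries, 16 in all.

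Every culture came from wild type CD1 pups of P0 to P2, received cytosine arabinoside at 3 DIV against dividing cells, was given 10-fold concentrated astrocyte medium at 10 and again at 13 DIV, and ended at 17 DIV. The apoE2, apoE3 and apoE4 groups received medium of immortalized astrocytes homozygous for the human *APOE* ε2, ε3 or ε4 allele, derived from targeted replacement mice, and the control neurons received medium of immortalized astrocytes from *Apoe*-/- mice. The neurons of all groups kept their own mouse *Apoe*, and the astrocytes of all groups had been held in serum-free medium with N-2 supplement and 25-hydroxycholesterol. Each genotype was a single astrocyte line, so a difference between isoforms and a difference between lines cannot be told apart. The control differs from the other groups in its astrocyte line and in the absence of apoE together.

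Lipoproteins deliver triglycerides, cholesteryl esters and phospholipids, which lipases must hydrolyse before a cell can use them. Extracellular lipases act on the particle itself, lysosomal acid lipase acts on what has been taken up by endocytosis, and the cytosolic lipases break down the triglycerides stored in lipid droplets one fatty acid at a time. The acyltransferases Dgat1 and Dgat2 run the last step of triglyceride synthesis and refill the droplets. In the brain, monoacylglycerol lipase is also known as the main enzyme that removes the endocannabinoid 2-arachidonoylglycerol, and lipoprotein lipase is expressed by hippocampal neurons.

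Between 14087723 and 34248172 reads per library fell on genes (median 22221832), and HTSeq assigned 38.4 to 73.7% of a library's total to no single gene. *Lars2* took 0.359 to 15% of the reads on genes. These shares differed within a replicate number as well. In number 1 *Lars2* took 12.2 to 15% in the treated libraries and 5.95% in the control. There 71.6 to 73.7% and 61.8% were assigned to no single gene. In number 4 *Lars2* took 0.69% with apoE2 and 8.36% in the control, and in number 2 0.359% with apoE4 and 4.85% in the control. The part of these differences in the results was not tested. Levels are given in CPM, that is counts divided by the TMM-adjusted library size and scaled as is usual for this unit. The 9 neuron marker genes listed for this work were all tested and summed to 2630 to 6590 CPM per library, while the 9 astrocyte markers summed to 1320 to 6630 CPM and the 10 microglia and macrophage markers to 9 to 61.3 CPM. Transcripts of both sets were present in every library. Libraries with the same replicate number deviated together, and a pair below is a treated and a control library with the same number. Every comparison with the control uses the same 4 control libraries.

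Per kilobase of exon, the level over all 16 libraries was highest for *Dgat2* at 27.3 ± 6.15 CPM/kb (SD, n = 16), followed by *Mgll* at 14.5 ± 4.25 CPM/kb. A middle group was formed by *Dgat1* at 5.44 ± 0.52, *Lpl* at 5.35 ± 3.95, *Lipa* at 4.61 ± 2.29 and *Pnpla2* at 3.28 ± 1.02 CPM/kb. Below these came *Lipg* at 1.29 ± 0.755 and *Lipe* at 0.581 ± 0.156 CPM/kb, and *Apobr* at 0.143 ± 0.0902 and *Liph* at 0.121 ± 0.0699 CPM/kb were the lowest. *Dgat2* was above *Mgll* in 14 of 16 libraries and *Mgll* above *Dgat1* in all 16. The order of *Lpl* and *Lipa* was not separated by the spread, since *Lpl* was the higher in 6 of 16 libraries, and neither was that of *Apobr* and *Liph*, where *Apobr* was the higher in 10 of 16.

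**Figure D1:**
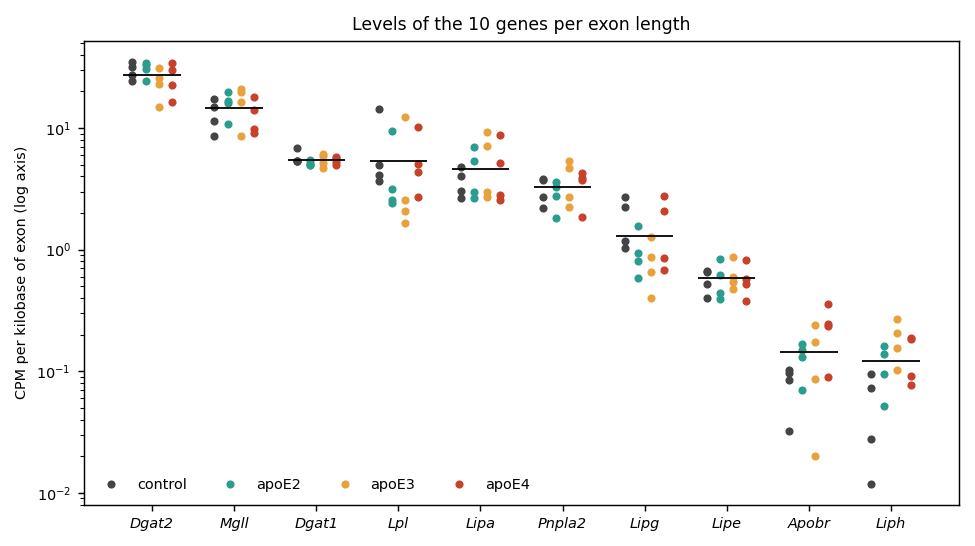
Level of each gene in CPM per kilobase of exon (log axis), with 1 point per library coloured by group and a black bar at the mean of the 16 libraries. *Dgat2* and *Mgll*, at means of 27.3 and 14.5 CPM/kb, stand above the rest, and *Apobr* and *Liph*, at 0.143 and 0.121 CPM/kb, lie at the bottom.

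The upstream sequences of 3 genes whose results follow are printed here, taken from RefSeq on the build GRCm38.p6 and covering the 250 bases before the RefSeq start of the gene, 5′ to 3′ on the gene's own strand. They were chosen as that of a lipase that was higher with apoE3 (*Liph*), and those of the lysosomal and the monoacylglycerol lipase (*Lipa* and *Mgll*), whose levels followed the replicate number. *Liph* is read at chr16:21995543-21995792 on the minus strand, *Lipa* at chr19:34527475-34527724 on the minus strand and *Mgll* at chr6:88724162-88724411 on the plus strand. Capitals mark every match, on either strand, to the CCAAT box (CCAAT), to the palindromic E-box (CACGTG), to the GC box (GGGCGG) or to the octamer (ATTTGCAT), and the searched letters do not overlap one another in these 3 windows.
Liph: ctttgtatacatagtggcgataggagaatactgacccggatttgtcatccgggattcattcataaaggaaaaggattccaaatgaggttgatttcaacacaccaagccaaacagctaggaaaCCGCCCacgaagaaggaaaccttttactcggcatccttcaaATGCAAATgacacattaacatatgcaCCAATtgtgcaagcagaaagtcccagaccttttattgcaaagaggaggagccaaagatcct
Lipa: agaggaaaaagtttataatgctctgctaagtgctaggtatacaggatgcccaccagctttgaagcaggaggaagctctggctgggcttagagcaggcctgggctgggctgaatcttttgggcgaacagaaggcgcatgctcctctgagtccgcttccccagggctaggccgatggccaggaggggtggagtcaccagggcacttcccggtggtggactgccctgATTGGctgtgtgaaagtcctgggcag
Mgll: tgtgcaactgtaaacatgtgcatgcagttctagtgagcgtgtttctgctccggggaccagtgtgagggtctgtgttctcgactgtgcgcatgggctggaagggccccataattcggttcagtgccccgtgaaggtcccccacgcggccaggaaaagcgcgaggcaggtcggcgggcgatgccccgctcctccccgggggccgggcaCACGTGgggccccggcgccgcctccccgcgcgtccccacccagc
The *Liph* window held CCAAT from 61 bases before the start, the reverse of ATTTGCAT from 87 bases before it and the reverse of GGGCGG from 128 bases before it. That of *Lipa* held the reverse of CCAAT from 26 bases before the start, and that of *Mgll* held CACGTG from 44 bases before it. Among all 32851 upstream windows of the same length, 33.8% held CCAAT, 32.7% GGGCGG, 6.02% CACGTG and 1.6% ATTTGCAT. A match says only that the letters occur there. GENCODE places the start of *Liph* farther upstream than RefSeq does, so 121 bases of its window, with the CCAAT and octamer matches, lie inside the gene as positioned below, while the windows of *Lipa* and *Mgll* end where their genes begin.

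*Lpl* encodes lipoprotein lipase, which hydrolyses the triglycerides of circulating and interstitial lipoproteins, and lies on chromosome 8 from 68880491 to 68907448 on the plus strand (mm10, as all gene positions here). In the control libraries of replicate numbers 1 to 4 it was at 38.7, 149, 52.3 and 42.8 CPM. The values were 25.5, 99.5, 26.7 and 33.1 CPM with apoE2, and 26.7, 129, 21.7 and 17.3 CPM with apoE3. The apoE4 libraries were at 52.8, 106, 45.7 and 28.5 CPM. Replicate number 2 was by far the highest in every group, with a mean of 121 ± 22.8 CPM over its 4 libraries against 30.4 to 36.6 CPM for the other numbers, and all groups overlapped. *Lpl* was lower than in the paired control library in 4 of 4 pairs with apoE2, 4 of 4 with apoE3 and 3 of 4 with apoE4, where 9.73% of all tested genes were lower in 4 of 4 pairs with apoE2 and 16% with apoE3. With apoE3 it was at 48.8 ± 53.9 CPM against 70.8 ± 52.7 CPM in the control (SD, n = 4 each), and edgeR gave a log2 fold change of −0.53 (SE 0.69, adjusted p = 0.861), which was 0.13 without control replicate 2. Once the replicate number entered the edgeR fit as a block, *Lpl* fell with apoE3 by 0.78 on the log2 scale (SE 0.21, adjusted p = 0.03). The blocked log2 fold change was −0.62 with apoE2 (SE 0.21, edgeR adjusted p = 0.178) and −0.19 with apoE4 (SE 0.21, edgeR adjusted p = 0.7). The apoE3 call was lost without replicate number 1 (edgeR adjusted p = 0.0885), 3 (0.18) or 4 (0.152), while without number 2 the change was −1.06 (edgeR adjusted p = 0.00934). These are bulk libraries, in which fewer cells of a type and less RNA per cell cannot be told apart.

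*Lipg* encodes endothelial lipase, mainly a phospholipase that acts on high-density lipoproteins, on chromosome 18 from 74939322 to 74961263 on the minus strand. Its control libraries held 4.86, 10.5, 12.7 and 5.55 CPM. With apoE2 they held 2.75, 7.34, 3.83 and 4.43 CPM, and with apoE3 1.9, 6.03, 3.09 and 4.07 CPM. With apoE4 the values were 4, 9.86, 12.9 and 3.21 CPM. The apoE2 and apoE3 values were below the paired control in 4 of 4 pairs, and the apoE4 value was below it in 3 of 4, although the groups overlapped in every comparison. The mean was 3.77 ± 1.74 CPM with apoE3 and 8.41 ± 3.82 CPM in the control (SD, n = 4 each). The edgeR log2 fold change of −1.15 (SE 0.49, unadjusted p = 0.035, adjusted p = 0.777) met the limits that the study used, at least a doubling or halving with p under 0.05 before adjustment (below, the study's criterion), here applied to edgeR p-values and not to those of the study's own test, but not the adjusted threshold. With the replicate block *Lipg* fell by 1.15 on the log2 scale with apoE3 (SE 0.29, edgeR adjusted p = 0.0206). With apoE2 the blocked change was −0.84 (SE 0.28, edgeR adjusted p = 0.167) and with apoE4 −0.22 (SE 0.27, edgeR adjusted p = 0.732). The blocked apoE3 call was lost without replicate number 1 (edgeR adjusted p = 0.141) or 3 (0.0724), and without number 3 the change was −0.82. Without number 4 the apoE2 change was called as well (edgeR adjusted p = 0.0494).

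*Liph* encodes a membrane-associated phospholipase that makes lysophosphatidic acid from phosphatidic acid, on chromosome 16 from 21953817 to 21995663 on the minus strand. It rested on few reads, namely 7, 3, 12 and 1 in the control, 10, 11, 16 and 9 with apoE2, 12, 11, 18 and 18 with apoE3 and 5, 14, 15 and 16 with apoE4. In CPM the control libraries were at 0.318, 0.121, 0.419 and 0.0524 and the apoE3 libraries at 0.914, 0.451, 0.686 and 1.18. Every apoE3 library was above every control library, a separation that 1.4% of all tested genes showed in that direction, and in the apoE2 and apoE4 groups, which overlapped with the control, 4 of 4 pairs were higher, as for 11.6% and 14.9% of all tested genes. The log2 fold change with apoE3 was 1.75 (SE 0.55, edgeR unadjusted p = 0.00684, adjusted p = 0.619), which met the study's criterion, and with the replicate block it was 1.75 (SE 0.51, edgeR adjusted p = 0.0362). With apoE4 it was 1.32 (SE 0.56, edgeR unadjusted p = 0.0313, adjusted p = 1), which met the study's criterion also, and 1.37 with the block (SE 0.51, edgeR adjusted p = 0.188). With apoE2 it was 1.02 (SE 0.56, edgeR adjusted p = 1). The blocked apoE3 call was lost whichever replicate number was left out, at edgeR adjusted p-values of 0.0727 to 0.134, and the change was 1.21 without number 4, whose control library held 1 read.

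The study itself names *Lipg* and *Liph* as changed with apoE3 and *Apobr* with apoE4 in these same libraries, so their place here is not independent evidence of a change.

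**Figure D2:**
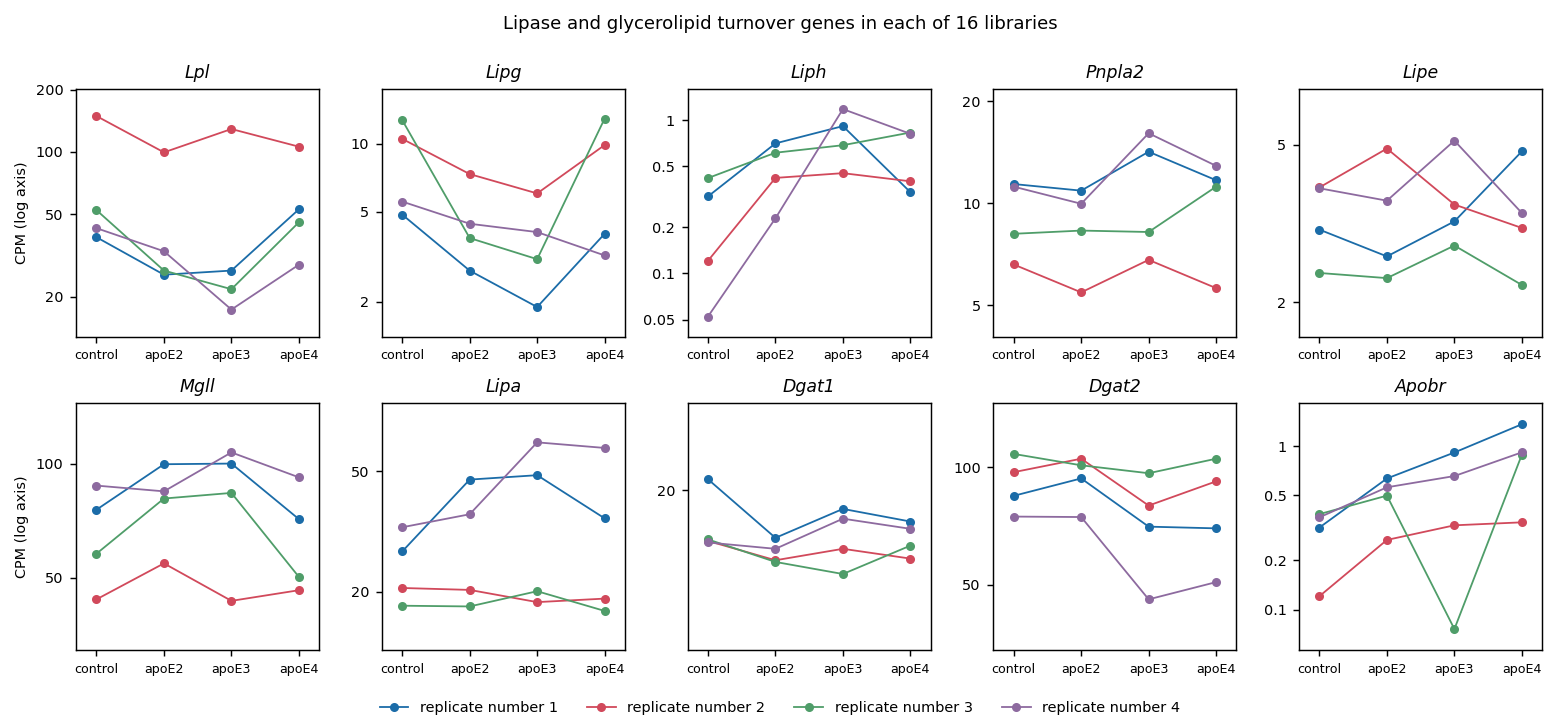
CPM of each gene (log axis) in the 16 libraries, with the 4 groups along the horizontal axis and a line joining the libraries that share a replicate number. *Lpl* is highest in number 2 in every group, between 99.5 and 149 CPM, while *Lipa*, *Mgll* and *Pnpla2* are higher in numbers 1 and 4 than in number 2 in every group.

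*Pnpla2* encodes adipose triglyceride lipase, which takes the first fatty acid off stored triglyceride (chromosome 7 from 141455198 to 141460743, plus strand). The control libraries were at 11.4, 6.6, 8.13 and 11.2 CPM, and the apoE3 libraries at 14.2, 6.81, 8.23 and 16.1 CPM. All other libraries lay within 5.46 to 12.9 CPM. Although the apoE3 value was above the paired control in 4 of 4 pairs, a pattern of 18.6% of all tested genes, the groups overlapped and the blocked log2 fold change was 0.24 (SE 0.14, 95% interval −0.05 to 0.52, edgeR adjusted p = 0.278). It was −0.12 with apoE2 and 0.13 with apoE4 in the same fit, with edgeR adjusted p-values of 0.803 and 0.678. The unblocked values were −0.1, 0.28 and 0.15 with apoE2, apoE3 and apoE4 (SE 0.32, 0.33 and 0.32).

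*Lipe* encodes hormone-sensitive lipase, which acts chiefly on diacylglycerol (chromosome 7 from 25379527 to 25398710, minus strand). Its groups lay on top of each other, at 3.3 ± 0.735 CPM in the control, 3.35 ± 1.17 with apoE2, 3.66 ± 1.02 with apoE3 and 3.37 ± 1.08 with apoE4 (SD, n = 4 each). The blocked log2 fold changes were 0.02, 0.15 and 0.01, with 95% intervals of −0.43 to 0.48, −0.32 to 0.61 and −0.45 to 0.48, and without the block they were 0.03, 0.15 and 0.03 (SE 0.3 each). Of its exon bases 15.6% also lie in *4732471J01Rik* on the other strand, and whether the counting used the strand is not stated.

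*Mgll* encodes monoacylglycerol lipase, which releases the last fatty acid and degrades 2-arachidonoylglycerol (chromosome 6 from 88724412 to 88828360, plus strand). The control libraries held 75.6, 43.9, 57.9 and 87.5 CPM. With apoE2 the values were 99.6, 54.6, 80.9 and 84.5 CPM and with apoE3 100, 43.5, 83.7 and 107 CPM. With apoE4 they were 71.4, 46.4, 50.3 and 92 CPM. Replicate number 2 was the lowest in all groups and the groups overlapped, with apoE2 and apoE3 each above the paired control in 3 of 4 pairs. No comparison was called. The blocked log2 fold change was 0.29 with apoE2 (SE 0.12, edgeR adjusted p = 0.276), 0.31 with apoE3 (SE 0.12, edgeR adjusted p = 0.0989) and −0.02 with apoE4 (95% interval −0.27 to 0.23). Unblocked, they were 0.27, 0.33 and −0.03 (SE 0.3 each). Of its exon bases 3.29% also lie in *Gm26588* on the other strand.

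*Lipa* encodes lysosomal acid lipase, the enzyme that frees cholesterol and fatty acids from endocytosed lipoproteins (chromosome 19 from 34492318 to 34527474, minus strand). It was at 27.2, 20.6, 18 and 32.7 CPM in the control libraries. With apoE2 it was at 47, 20.3, 17.9 and 36.1 CPM and with apoE3 at 48.6, 18.5, 20.1 and 62.4 CPM. In the apoE4 libraries it was at 35, 19, 17.3 and 59.8 CPM. In numbers 1 and 4 every treated library was above its control, while numbers 2 and 3 stayed between 17.3 and 20.6 CPM in every group. The blocked log2 fold change with apoE3 was 0.44 (SE 0.18, 95% interval 0.06 to 0.82, edgeR adjusted p = 0.12), with apoE2 0.22 (SE 0.18, edgeR adjusted p = 0.673) and with apoE4 0.27 (SE 0.18, edgeR adjusted p = 0.481). The unblocked values were 0.6 with apoE3, 0.3 with apoE2 and 0.41 with apoE4 (SE 0.47 each).

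For the acyltransferases, *Dgat1* (chromosome 15 from 76502015 to 76511953, minus strand) had the narrowest spread of the 10 genes relative to its level. It was at 20.9, 16.4, 16.5 and 16.3 CPM in the control, and between 14.4 and 18.6 CPM in all treated libraries. Control replicate 1 thus stood above every other library. The blocked log2 fold changes were −0.16, −0.07 and −0.08 with apoE2, apoE3 and apoE4, with 95% intervals of −0.34 to 0.02, −0.25 to 0.11 and −0.26 to 0.1, and they were the same to 2 decimals without the block (SE 0.11 each).

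*Dgat2* (chromosome 7 from 99153658 to 99182719, minus strand) was at 84.4, 97, 108 and 74.7 CPM in the control libraries. With apoE2 it was at 93.5, 105, 101 and 74.5 CPM, and with apoE3 at 70.4, 79.7, 96.4 and 45.9 CPM. The apoE4 libraries were at 69.7, 91.9, 105 and 50.8 CPM. With apoE3 and with apoE4 it was below the paired control in 4 of 4 pairs, by least in number 3 and by most in number 4, and the groups overlapped. With apoE4, 11.3% of all tested genes were lower in 4 of 4 pairs. The edgeR log2 fold change with apoE3 was −0.32 (SE 0.23, adjusted p = 0.813), and with the replicate block *Dgat2* fell by 0.35 on the log2 scale (SE 0.1, edgeR adjusted p = 0.0322). With apoE4 the blocked change was −0.23 (SE 0.1, edgeR adjusted p = 0.247) and with apoE2 0.04 (SE 0.1, edgeR adjusted p = 0.915). The blocked apoE3 call was lost without replicate number 1 (edgeR adjusted p = 0.138), 2 (0.0615) or 4 (0.1).

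*Apobr* encodes a receptor that binds triglyceride-rich particles through apolipoprotein B and is known from macrophages (chromosome 7 from 126584942 to 126589112, plus strand). It rested on 7, 3, 11 and 7 reads in the control, 9, 7, 13 and 22 with apoE2, 12, 8, 2 and 10 with apoE3 and 20, 12, 16 and 18 with apoE4. In CPM the control libraries were at 0.318, 0.121, 0.384 and 0.367 and the apoE4 libraries at 1.36, 0.342, 0.886 and 0.916. The apoE4 value was above the paired control in 4 of 4 pairs, a pattern of 14.9% of all tested genes, and only number 2 kept the groups from separating. The log2 fold change with apoE4 was 1.51 (SE 0.6, edgeR unadjusted p = 0.0245, adjusted p = 1), which met the study's criterion, and 1.46 with the replicate block (SE 0.45, edgeR adjusted p = 0.1). With apoE2 it was 0.7 (SE 0.47, edgeR adjusted p = 0.58) and with apoE3 0.57 (SE 0.5, edgeR adjusted p = 0.486) in the blocked fit. Without replicate number 3, whose apoE3 library held 2 reads, the blocked apoE3 value was 1.24 (edgeR adjusted p = 0.118) and met the study's criterion. Of its exon bases 14.4% lie also in *Cln3* or *Il27* on the other strand. None of the 10 microglia and macrophage markers was called with apoE4 in the blocked edgeR fit, although 8 of the 10 had a log2 fold change above 0 and the median was 0.24, against −0.0017 over all tested genes. Their sum ranged from 9 to 44 CPM in the control and from 12.6 to 48.2 CPM in the apoE4 libraries. The part of such cells in the *Apobr* values was not tested.

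Across the 10 genes, edgeR without the block called 0 at an adjusted p under 0.05 with apoE2, apoE3 or apoE4, where it called 0%, 0.00587% and 0.194% of all tested genes. DESeq2 likewise called 0 of the 10 in each. At an unadjusted p under 0.05 edgeR had 0, 2 and 2 of the 10 genes, against 2.78%, 6.34% and 3.33% of all genes. None of the 10 met the study's criterion with apoE2, *Lipg* and *Liph* met it with apoE3 and *Liph* and *Apobr* with apoE4, as did 0.716%, 1.95% and 1.14% of all tested genes. With 1 library left out at a time, the count at this criterion with apoE3 dropped from 2 to 1 without apoE3 replicate 1, 3 or 4 or control replicate 2 or 3. With apoE4 it dropped to 1 without apoE4 replicate 1, 3 or 4 or control replicate 4 and to 0 without control replicate 2. With the replicate block the adjusted threshold was passed by 0 genes with apoE2, 4 with apoE3 (*Lpl*, *Lipg* and *Dgat2* lower, *Liph* higher) and 0 with apoE4, against 1.72%, 11.8% and 3.34% of all tested genes. Of all tested genes, 7.98% rose and 3.78% fell with apoE3 in that fit. When replicate number 1, 2, 3 or 4 was left out of the blocked fit, the apoE3 count of 4 became 0, 2, 1 and 1. DESeq2 with the block called the same 4 genes. The median log2 fold change of the 10 genes with apoE3 was 0.19 in the blocked edgeR fit, beside 0.02 over all tested genes.

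**Figure D3:**
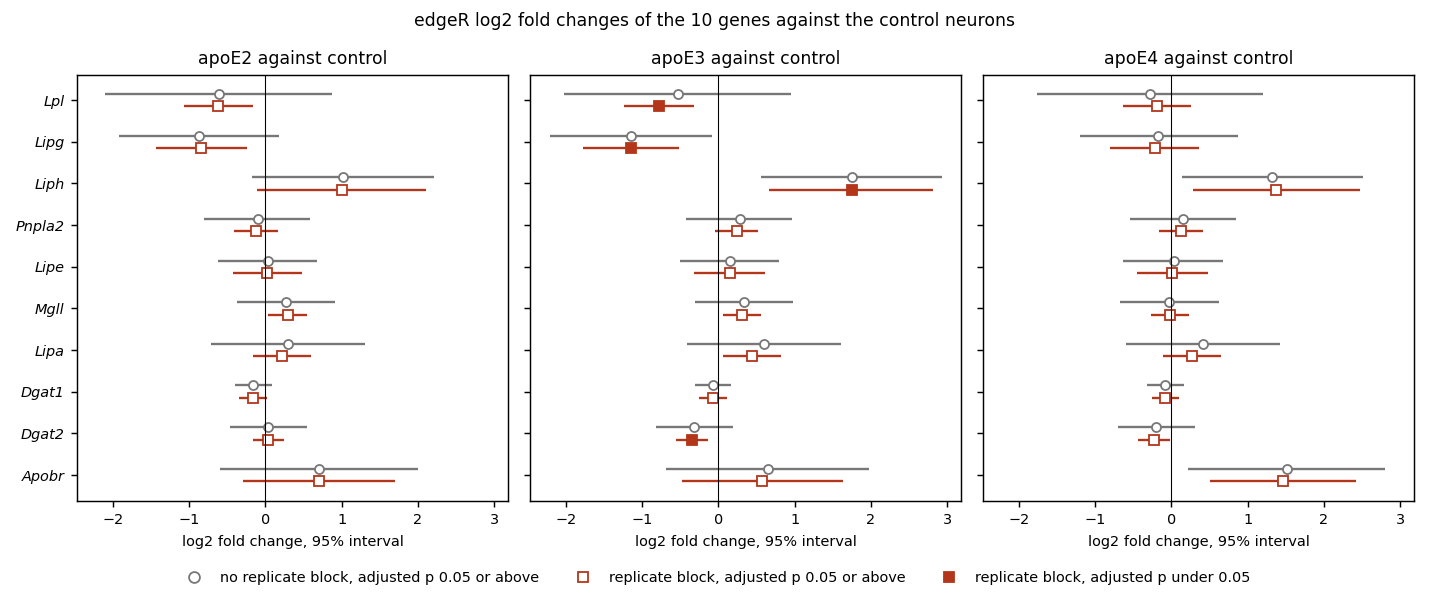
Log2 fold changes against the control with 95% intervals for each gene, in grey circles without and in red squares with the replicate number as a block. Filled symbols passed an edgeR adjusted p of 0.05, which only *Lpl*, *Lipg*, *Liph* and *Dgat2* did, each with apoE3 and the block. The intervals of *Lpl* narrow most, from −2.02 to 0.95 without the block to −1.24 to −0.32 with it.

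Compared directly, none of the 10 genes passed an edgeR adjusted p of 0.05 between any pair of isoforms, with or without the block. Of all tested genes, 1.8% differed between apoE4 and apoE3, 4.45% between apoE4 and apoE2 and 1.37% between apoE3 and apoE2 in the blocked edgeR fit. Without the block edgeR called 0.153%, 0.252% and 0% of all tested genes, and 1.23%, 1.28% and 0.675% met the study's criterion, which 0 of the 10 did. DESeq2 without the block called 0 of the 10 genes as well, while DESeq2 with the block called *Lipg* between apoE4 and apoE3 (adjusted p = 0.0488) and *Dgat2* between apoE3 and apoE2 (adjusted p = 0.0117). The lowest blocked p of the 10 genes was that of *Dgat2* between apoE3 and apoE2, lower with apoE3 in 4 of 4 pairs as were 11.6% of all tested genes (log2 fold change −0.39, SE 0.1, edgeR adjusted p = 0.0643), and that between apoE4 and apoE2 was −0.28 (SE 0.1, edgeR adjusted p = 0.138). *Lipg* had a log2 fold change of 0.93 with apoE4 against apoE3 (SE 0.3, 95% interval 0.29 to 1.56, edgeR adjusted p = 0.14), higher in 3 of 4 pairs. For *Lpl* it was 0.59 (SE 0.22, 95% interval 0.13 to 1.05, edgeR adjusted p = 0.19). In that comparison *Lipg* passed the threshold without replicate number 4 (1.28, edgeR adjusted p = 0.0358) and *Lpl* without number 2 (0.95, edgeR adjusted p = 0.0451). *Mgll* with apoE4 was at −0.33 against apoE3 (SE 0.12, edgeR adjusted p = 0.176) and −0.31 against apoE2 (SE 0.12, edgeR adjusted p = 0.16). At an unadjusted p under 0.05 the blocked fit had 3, 3 and 2 of the 10 genes in these comparisons, against 16.2%, 18.1% and 15.9% of all tested genes, and the fit without the block had 0 in each, against 4.67%, 5.27% and 2.28%.

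The replicate number took a larger share of the variance of log2 CPM than the treatment for 9 of the 10 genes. It took 82.2% for *Pnpla2*, 81.8% for *Lipa*, 78.5% for *Lpl* and 76.2% for *Mgll*, against a median of 56.1% over all tested genes. The groups took 52.6% for *Liph*, 33% for *Lipg* and 32.2% for *Apobr*, against a median of 14.4%. *Lipa* averaged 39.5 and 47.8 CPM in numbers 1 and 4 and 19.6 and 18.3 CPM in numbers 2 and 3, and *Pnpla2* averaged 12 and 12.5 CPM in the former and 6.12 and 8.98 CPM in the latter. The summed astrocyte markers had medians of 3350, 1500, 3120 and 4300 CPM in numbers 1 to 4, the oligodendrocyte lineage markers 677, 115, 228 and 558 CPM, and the neuron markers 4320, 5560, 5980 and 3340 CPM. *Dgat2* had the order of the neuron markers, at 79.5, 93.5, 103 and 61.5 CPM. The part of these cell types in the levels of the 10 genes was not tested.

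**Figure D4:**
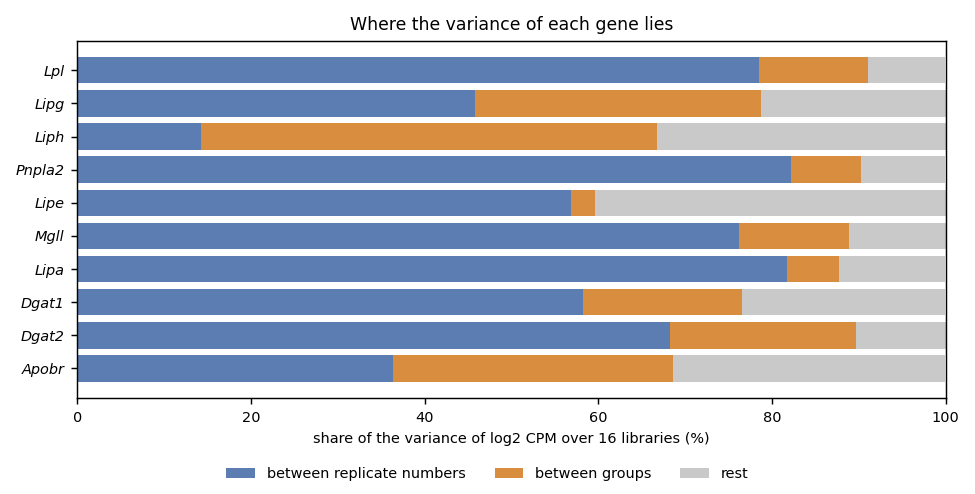
Share of the variance of log2 CPM over the 16 libraries that lies between replicate numbers (blue), between groups (orange) and in the rest (grey), for each gene. The blue share reaches 82.2% in *Pnpla2*, and the orange share exceeds it only in *Liph*, at 52.6% against 14.2%.

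The genes that work with these enzymes were taken from lists of 7 pathways. Without the block edgeR called 0 genes of these lists in any comparison with the control, and with it 16 of the 83 tested were called higher or lower with apoE3. Among all tested genes the blocked fit called 7.98% higher and 3.78% lower with apoE3, 1.17% higher and 0.546% lower with apoE2 and 3.21% higher and 0.129% lower with apoE4. The values named below come from the blocked fit unless stated. Of the 21 calls of such genes among them, 3 held whichever replicate number was left out of the blocked edgeR fit, those of *Angptl4*, *Plin2* and *Scarb2* with apoE3. Among the partners of the extracellular lipases, *Angptl4*, whose product inhibits lipoprotein lipase, was at 0.455, 0.0805, 0.244 and 1.1 CPM in the control libraries. It was at 1.9, 0.451, 1.33 and 5.91 CPM with apoE3 and at 0.949, 0.2, 1.61 and 6.26 CPM with apoE4. Each of these libraries was above its paired control, though the groups overlapped. With the replicate block *Angptl4* rose with apoE3 by 2.36 on the log2 scale (SE 0.39, edgeR adjusted p = 0.0021) and with apoE4 by 2.08 (SE 0.39, edgeR adjusted p = 0.00771), and with apoE2 its change was 1.02 (SE 0.41, edgeR adjusted p = 0.281). The apoE4 call was lost without replicate number 3 (edgeR adjusted p = 0.0704) or 4 (0.112). The unblocked edgeR adjusted p-values with apoE3, apoE4 and apoE2 were 0.78, 1 and 1. *Lmf1*, whose product folds the lipases in the endoplasmic reticulum, was at 11.6 to 15.8 CPM in all libraries with a blocked change of −0.04 with apoE3 (edgeR adjusted p = 0.867). *Gpihbp1*, the capillary anchor of lipoprotein lipase, had 1 read over the 16 libraries and *Apoc2*, its activator, had 0, so neither was tested.

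Of the 17 tested genes of lipolysis and the lipid droplet, 2 rose with apoE3, 1 with apoE4 and 0 with apoE2 in the blocked fit. *Plin2*, which encodes the coat protein of lipid droplets, was at 9.59, 2.37, 5.76 and 20.8 CPM in the control and at 23.8, 4.14, 11.2 and 52 CPM with apoE3. All 4 apoE3 libraries were above their paired control, by 1.74 to 2.49 times, and the groups overlapped. It rose with apoE3 by 1.13 (SE 0.19, edgeR adjusted p = 0.00201) and with apoE4 by 0.85 on the log2 scale (SE 0.19, edgeR adjusted p = 0.0199), and with apoE2 the change was 0.49 (SE 0.19, edgeR adjusted p = 0.248). *Plin3*, another droplet coat protein, rose with apoE3 by 0.8 (SE 0.21, edgeR adjusted p = 0.0231). Without the block the *Plin2* change with apoE3 was 1.24 (SE 0.87, edgeR adjusted p = 0.808) and with apoE4 0.88 (edgeR adjusted p = 1), and *Plin3* had an edgeR adjusted p of 0.813. The apoE4 call of *Plin2* was lost without number 2 (edgeR adjusted p = 0.0741) or 3 (0.147), and that of *Plin3* without number 1 (0.132) or 3 (0.112). With apoE3 *Abhd5*, the activator of adipose triglyceride lipase, was at 0.3 on the log2 scale (edgeR adjusted p = 0.102) and *G0s2*, its inhibitor, at −0.31 (edgeR adjusted p = 0.719). *Ddhd2*, a brain triglyceride lipase, was at −0.15 (SE 0.06, edgeR adjusted p = 0.121). The median over the 17 genes with apoE3 was 0.11, against 0.02 over all tested genes.

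Of the 9 tested genes around monoacylglycerol and endocannabinoids, 2 fell with apoE3 and 0 rose, and 0 were called with apoE2 or apoE4. *Dagla*, which makes the 2-arachidonoylglycerol that monoacylglycerol lipase removes, fell by 0.39 on the log2 scale, from 62.9 ± 15 to 48.1 ± 11.7 CPM (SD, n = 4 each, SE 0.11, edgeR adjusted p = 0.037). *Napepld*, which makes *N*-acylethanolamines, was at 23.5, 24, 21.8 and 19.3 CPM in the control and at 15.9, 19.3, 16.5 and 13.1 CPM with apoE3. The apoE3 and control libraries met only at 19.3 CPM as rounded and did not overlap, as for 1.19% of all tested genes in that direction, and *Napepld* fell by 0.46 (SE 0.09, edgeR adjusted p = 0.00476). *Abhd6*, another monoacylglycerol hydrolase, was at −0.19 on the log2 scale (edgeR adjusted p = 0.367). The unblocked edgeR adjusted p was 0.808 for *Dagla* and 0.598 for *Napepld*. Without number 1 both calls were lost, *Dagla* at an edgeR adjusted p of 0.154 and *Napepld* at 0.0512, and that of *Dagla* was lost without number 2 (0.0886) or 3 (0.0979) as well. The median of the list with apoE3 was −0.19.

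Glycerolipid synthesis had 1 of 16 tested genes called with each isoform, all higher. *Gpam*, which starts glycerolipid synthesis in mitochondria, rose with apoE3 by 0.6 (SE 0.14, edgeR adjusted p = 0.0108) and with apoE4 by 0.61 (SE 0.13, edgeR adjusted p = 0.0217). *Gk*, the glycerol kinase gene, rose with apoE2 by 0.42 (SE 0.1, edgeR adjusted p = 0.0433). Without the block the edgeR adjusted p-values were 0.808 and 1 for *Gpam* and 1 for *Gk*. Both *Gpam* calls were lost without number 1 or 3, at edgeR adjusted p-values of 0.0789 to 0.177, and that of *Gk* was lost without any 1 of the numbers, at 0.0626 to 0.311. Of 16 genes of fatty acid uptake and activation, 4 rose with apoE3, 1 with apoE4 and 0 with apoE2. They included *Cpt1a*, which brings fatty acids into mitochondria, at 0.89 with apoE3 (SE 0.2, edgeR adjusted p = 0.00946) and 0.77 with apoE4 (SE 0.2, edgeR adjusted p = 0.0438), and the fatty acid binding protein gene *Fabp5*, at 0.26 with apoE3 (SE 0.07, edgeR adjusted p = 0.0335). *Fabp5* was lower with apoE4 than with apoE3, by 0.33 on the log2 scale in the blocked fit (77.5 ± 28 against 97 ± 30.3 CPM, SE 0.07, edgeR adjusted p = 0.0311), a call lost without number 1 (0.242) or 3 (0.334). Without the block the edgeR adjusted p-values were 0.808 and 1 for *Cpt1a*, and 0.853 and 1 for the *Fabp5* comparisons. The *Cpt1a* call with apoE3 was lost without number 1 (edgeR adjusted p = 0.0892), that with apoE4 without number 1 (0.202), 2 (0.0637) or 3 (0.209), and that of *Fabp5* without number 1 (0.217), 2 (0.0676) or 3 (0.14).

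In the lysosome, where lysosomal acid lipase works, 3 of 8 tested genes rose with apoE3 and 0 were called with apoE2 or apoE4. *Scarb2*, a lysosomal membrane protein gene, rose by 0.57 (SE 0.09, edgeR adjusted p = 0.0014). *Npc1* and *Npc2*, which move cholesterol out of the lysosome, rose by 0.39 (SE 0.09, edgeR adjusted p = 0.0128) and 0.65 (SE 0.15, edgeR adjusted p = 0.0119). For these 3 genes the unblocked edgeR adjusted p-values were 0.778, 0.813 and 0.807. *Scarb2* was lower with apoE4 than with apoE3, at 279 ± 78.8 against 375 ± 82.7 CPM (log2 fold change −0.43, SE 0.09, edgeR adjusted p = 0.0221, and 1 without the block), a call lost without number 1 (0.192) or 3 (0.291). *Npc1* was no longer called without number 1 (edgeR adjusted p = 0.124), 3 (0.0588) or 4 (0.0565), and *Npc2* without number 1 (0.0623) or 3 (0.0727). The median of the 8 genes was 0.34 with apoE3, against 0.02 over all tested genes.

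Lysophosphatidic acid, the product of the *Liph* enzyme, signals through receptors and is removed by lipid phosphate phosphatases. Of the 9 tested genes of that list 3 rose with apoE3, 1 with apoE4 and 0 with apoE2. The receptor gene *Lpar1* rose with apoE3 by 0.81 (SE 0.17, edgeR adjusted p = 0.00661). The phosphatase gene *Plpp2* was at 0.5, 1.69, 0.489 and 2.04 CPM in the control and at 6.03, 2.99, 2.32 and 8.75 CPM with apoE4. These groups did not overlap, as for 1.34% of all tested genes in that direction, and *Plpp2* rose by 2.04 (SE 0.38, edgeR adjusted p = 0.0067). The receptor gene *Lpar2* was higher with apoE4 than with apoE2, at 2.71 ± 1.04 against 1.07 ± 0.486 CPM (log2 fold change 1.3, SE 0.31, edgeR adjusted p = 0.0253). Without the block the edgeR adjusted p-values were 0.808 for *Lpar1*, 0.442 for *Plpp2* and 0.358 for *Lpar2*, while DESeq2 without the block called *Plpp2* with apoE4 (2.09, adjusted p = 0.0407). The call of *Lpar1* was lost without number 1 (edgeR adjusted p = 0.0764), that of *Plpp2* without number 1 (0.0802) or 3 (0.0818) and that of *Lpar2* without number 1 (0.112), 3 (0.18) or 4 (0.0747).

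Markers of astrocytes were called as well. By GFAP staining of its cultures, the study found no significant difference in the share of astrocytes between treatments, which is a count of cells and not of RNA. In the blocked edgeR fit 8 of the 9 astrocyte markers rose with apoE3 (*Gfap* by 1.4, adjusted p = 0.000518), 4 with apoE4 and 0 with apoE2. Their summed level ranged from 1420 to 3190 CPM in the control, 1320 to 3170 with apoE2, 1710 to 6630 with apoE3 and 1580 to 5400 with apoE4. Of the 8 oligodendrocyte lineage markers 3 rose with apoE3, 1 with apoE4 and 0 with apoE2. Of the 9 neuron markers 2 were called higher and 2 lower with apoE3. Called or not, 7 of the 9 had a log2 fold change below 0, with a median of −0.24 against 0.02 over all tested genes. Of 7 tested vascular and fibroblast genes 1 rose with apoE3 and 1 with apoE4, and of 4 genes of dividing cells 1 rose with apoE2 and 1 with apoE3. None of these markers was called with apoE2, apoE3 or apoE4 in the edgeR fit without the block. Their part in the results for the lipases and their partners was not tested.

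**Figure D5:**
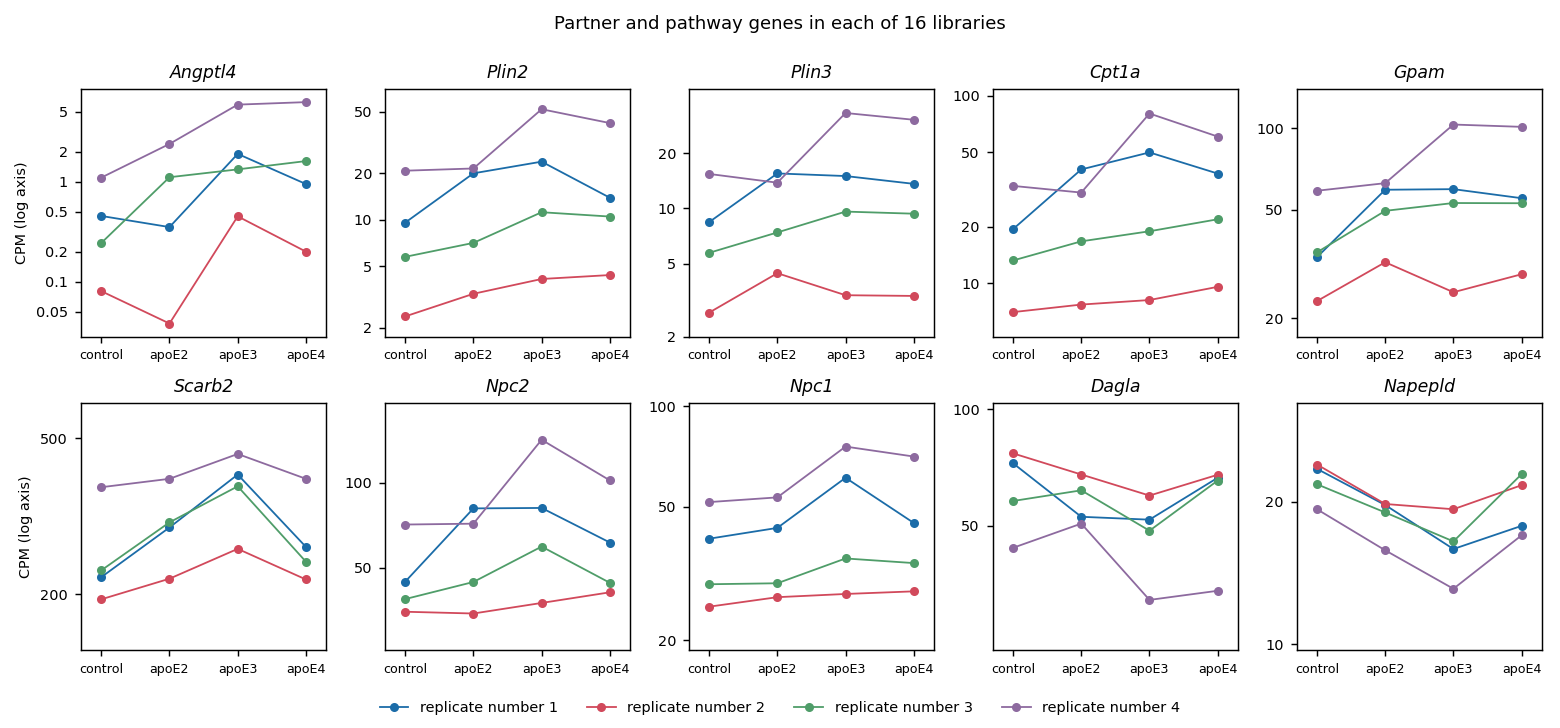
CPM of 10 partner and pathway genes (log axis) by group, with a line for each replicate number. *Angptl4*, *Plin2* and *Scarb2* are higher with apoE3 than in the control on all 4 lines, and *Dagla* and *Napepld* are lower on all 4.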

How the data were processed

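RNA of primary mouse hippocampal neurons was depleted of ribosomal RNA with Ribo-Zero Gold and sequenced from TruSeq libraries on a NovaSeq instrument. STAR (alignment to mm10) and HTSeq (counting per gene) were used by the authors, and the deposited values are raw counts, not normalized, for 48397 gene symbols in each of 16 libraries. The annotation that was counted and its strand setting are not given in the sources used here. The 5 HTSeq totals for reads on no single gene (38.4 to 73.7% of a library) entered neither library sizes nor tests. The depth of 14087723 to 34248172 counts on genes leaves *Liph* and *Apobr* with 1 to 22 reads per library.

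Groups and replicate numbers come from the labels. The test was the quasi-likelihood test of edgeR 4.0.16 in R 4.3.3 with robust estimation, TMM scaling, filterByExpr by group (minimum count of 10, minimum total of 15, proportion of 0.7) and 1 coefficient per group over the 16 libraries. P-values were adjusted by Benjamini-Hochberg over 17038 genes within each of 6 comparisons. All adjusted p-values come from such a fit across all genes. The second rule uses the limits of the study, a doubling or halving with p under 0.05 before adjustment, on the edgeR p-values, whereas the study took its p from Student's test of each gene. As all 10 genes passed the filter, the permutation test planned for genes below it was not needed. The script was tested on simulated data with 200 changed genes. These data held no effect of the replicate number, so they cannot test how the block handles such an effect. No 2 libraries of 1 group agreed within sampling noise.

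Libraries of the same replicate number deviated together, but for number 1 all correlations lay below the highest one between different numbers. The pairing is thus least certain for number 1. The deviations from the group means, in log2 CPM with a prior count of 2, correlated at 0.362 to 0.552 between libraries of number 1, 0.766 to 0.831 of number 2, 0.62 to 0.671 of number 3 and 0.681 to 0.79 of number 4, against −0.83 to 0.569 between different numbers. The labels give the numbers and the study counts independent cultures, but neither states that a number marks a shared culture, so the pairing rests on the data. The common dispersion was 0.132, and 0.0178 with the number as a block. No block is named in the methods of the study, so the fit without it is the reference for the alternatives, and the blocked values are given with it. For the partner genes the blocked values are given first, with the adjusted p without the block for those called.

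The members, the gene lists and the tests were chosen with earlier results of these data known. The text names all 10 members, 10 direct partners (*Abhd5*, *G0s2*, *Gpihbp1*, *Lmf1*, *Angptl4*, *Apoc2*, *Ddhd2*, *Dagla*, *Abhd6* and *Plin2*), the 12 other listed genes with the smallest p among those called in any comparison with or without the block, and for each member the gene most correlated with it over the 16 libraries. *Gfap*, *Lars2* and the genes whose exons overlap a member are named outside this rule. The symbol *Gpat3* of the synthesis list was not among those counted. Gene positions and exon lengths are those of GENCODE M21 (mm10), and 6 of the 10 members matched the RefSeq table of upstream sequences.

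Alternatives were DESeq2 size factors, no low-count filter, a filter of 1 CPM in 8 libraries, DESeq2 1.42.0, only the 2 groups compared, the replicate block and each library left out in turn. The block with each replicate number left out, and DESeq2 with the block, were added after the data had been seen.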

Additional observations from a re-analysis of the deposited data

Results flagged for a closer look

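In each of the 40 sets of 4 libraries (10 genes in 4 groups), the highest and the lowest library were checked for standing apart from the other 3, and chance alone marks about 1 in 20 sets. *Lpl* in replicate number 2 stood apart in 3 groups, at 149 CPM in the control (the next library was at 52.3 CPM), 99.5 CPM with apoE2 (next 33.1) and 129 CPM with apoE3 (next 26.7). *Dgat1* stood apart in control replicate 1, at 20.9 CPM with the next library at 16.5 CPM.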

How the results depend on the processing

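With the replicate block, 4 of the 10 genes were called with apoE3 in place of 0 (DESeq2 with the block also 4), and the block changed no other call of the 10 genes. DESeq2 with the block called 1 gene (*Lipg*) between apoE4 and apoE3 and 1 (*Dgat2*) between apoE3 and apoE2. At the study's criterion the stricter filter gave 1 gene with apoE3 and 0 with apoE4, since *Liph* and *Apobr* were not tested under it. The fit of only the 2 groups gave 0 with apoE4, since the low-count filter, set again on those libraries, left *Liph* and *Apobr* untested. DESeq2 gave 1 (*Lipg*) between apoE4 and apoE3, where the cause was not tested. Of 324 recomputed counts, 289 stayed within 1.5 times the reported one. Most of these were counts reported as 0 that stayed 0, so the figure says little about the counts above 0.

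Over the 20 fits that left out libraries, with or without the block, the count of called genes ranged from 0 to 1 with apoE2, 0 to 2 with apoE3 and 0 to 1 between apoE4 and apoE3. The count at the study's criterion ranged from 0 to 1 with apoE2, 1 to 3 with apoE3, 0 to 2 with apoE4 (0 without control replicate 2) and 0 to 2 between apoE4 and apoE3. The following log2 fold changes, none of them called in the fit without the block, changed sign in at least 1 of these fits. *Lpl* ranged from −1.33 to 0.05 with apoE2, −1.7 to 0.13 with apoE3, −0.74 to 0.39 with apoE4 and −0.21 to 1.42 between apoE4 and apoE3, with the ends set by leaving out a library of replicate number 2. *Lipg* with apoE4 ranged from −0.56 to 0.1. *Lipe* ranged from −0.22 to 0.17 with apoE2, −0.05 to 0.26 with apoE3 and −0.23 to 0.18 with apoE4. With apoE4 *Lipa* ranged from −0.06 to 0.63 and *Mgll* from −0.25 to 0.14, and *Pnpla2* with apoE2 from −0.24 to 0.05. *Dgat1* ranged from −0.15 to 0.01 with apoE3 and −0.14 to 0.0032 with apoE4, and *Dgat2* with apoE2 from −0.04 to 0.13. *Plin2* with apoE4 ranged from −0.01 to 1.59 without the block, the ends being without apoE4 and control replicate 4. Of 1804 recomputed values of single genes, 32 changed sign, all of them in fits that left out libraries.

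With 4 libraries per group and 1 to 22 reads per library, the depth limits *Liph* and *Apobr* most. A change of sign near 0 is within the error of these values.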

Other observations

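For each of the 10 genes, the tested gene whose log2 CPM was most alike over the 16 libraries is given as a description by Pearson's r. Libraries with the same replicate number deviated together, so these values are not over independent samples. *Lpl* was most like *Crym* (r = 0.958), *Lipg* like *Celf6* (0.884) and *Liph* like *Cmya5* (0.843). Among the intracellular lipases, *Lipa* was most like *Slc27a1* (r = 0.985), *Pnpla2* like *Tcn2* (0.959), *Mgll* like *Gcsh* (0.954) and *Lipe* like *Taf1c* (0.851). *Dgat2* was most like *Nkiras1* (r = 0.962), *Dgat1* like *Tnfrsf19* (0.857) and *Apobr* like *Gbp4* (0.84).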
